A study of Rattus norvegicus with 56 samples.

Results

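Acetylation of lysine 9 on histone H3 (H3K9ac) is described here at the places in the rat genome where the mark was listed on 1 side of the brain alone, in adult and in old animals with a brain haemorrhage. Overlapping H3K9ac peaks of 4 lists (each side at 21 and at 13 months, without plasma) were joined to 199844 regions. The ipsilateral set holds the 3057 regions (1.53%) with a peak in both ipsilateral lists and in neither contralateral list. The contralateral set holds the 7068 regions (3.54%) with a peak in both contralateral lists and in neither ipsilateral list. The members were chosen by the presence and absence of these H3K9ac peaks, so their H3K9ac values in the 4 lists are a description and support nothing. H3K4me3, H3K27me3 and the H3K9ac of plasma-treated rats come from other libraries and did not enter the choice.

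All tissue came from rats with an intracerebral haemorrhage, a bleed into the brain. The groups used are ipsilateral tissue (the side of the haemorrhage) at 21 months after treatment with plasma from rats of 3 or of 22 months, ipsilateral tissue without plasma at 21 and 13 months, and contralateral tissue without plasma at 21 and 13 months. The sample labels give 21 months for the old rats, where the text of the series gives 22. No uninjured brain is among these groups, and the labels do not say which part of the brain was cut out, how long after the bleed, or whether the 2 libraries of a group came from separate animals. Chromatin immunoprecipitation and sequencing (ChIP-seq) was run for H3K9ac, H3K4me3 and H3K27me3 without plasma and for H3K9ac and H3K27me3 with plasma, 28 ChIP and 28 input libraries in all, with 2 of each in a group without plasma and 1 of each in a group with plasma. The peaks were called on the libraries of a group together, 1 list a group, so no value below has a spread between replicates and no test was run. Shares of regions carry 95% Wilson intervals, which cover counting error over regions only, and neighbouring regions are not independent.

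Acetyl groups on H3K9 are placed by histone acetyltransferases such as GCN5 and PCAF and removed by histone deacetylases. The mark is known from the start sites of active genes and from active enhancers. H3K4me3, laid down by SET1 and MLL complexes, marks active and poised promoters. H3K27me3, laid down by the Polycomb complex PRC2, marks silenced genes of development, and a lysine 27 that carries it cannot be acetylated at the same time. Bulk brain tissue mixes neurons, glia, vessel cells and, after a bleed, blood-borne cells, so a mark in a few cells with it and a weak mark in many cannot be told apart.

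The lists differed in depth, and 1 of those behind the sets stood apart. The 13-month ipsilateral H3K9ac libraries kept 19323327 ChIP tags after 82% of tags were removed as duplicates, and gave 69557 peaks. The 21-month ipsilateral list rested on 66910243 tags with 22% duplicates and held 102607 peaks. The contralateral lists had 99213634 tags, 13% duplicates and 120348 peaks at 21 months, and 46299770 tags, 55% duplicates and 93770 peaks at 13 months. Results on the members are therefore also given for regions on 1 side at 21 months whatever the 13-month lists held, a choice made after the data were seen. The plasma H3K9ac lists were nearly equal in depth, 57426239 tags for plasma of 3-month rats and 56130825 for plasma of 22-month rats, but held 50651 and 123863 peaks. With equal numbers of peaks taken from the 4 untreated H3K9ac lists the sets held 3230 and 3426 regions. With peaks of a fold of at least 4 the ipsilateral set was the larger, with 1352 regions against 564, where regions with a weaker peak on the other side can enter. With a fold of 4 or more at both ages and no peak on the other side, the sets held 105 and 181 regions. The part of list size in the size of the sets was not tested.

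The H3K9ac lists of the 2 ages paired across sides. In their overlap with plasma peaks and with H3K27me3, given below, the 21-month ipsilateral list went with the 13-month contralateral one, and the 21-month contralateral list with the 13-month ipsilateral one. H3K4me3 listed at 13 months on the ipsilateral side alone was commoner where H3K9ac was ipsilateral at 13 months. It lay in 5.40% of the ipsilateral set and 2.67% of regions that were contralateral at 21 and ipsilateral at 13 months, against 1.08% of the contralateral set, 1.31% of the opposite switching regions and 1.51% of all regions. Ipsilateral-only H3K4me3 at 21 months had the same order, with 2.72% and 1.25%, against 0.509%, 0.165% and 0.508%. This order is by the H3K9ac side at 13 months and not by that at 21 months. H3K4me3 on the contralateral side alone at 13 months had no such order, with 0.327% and 1.10%, against 0.877% and 0.903%, in the same groups. The sides are used as labelled. If the H3K9ac side labels of 1 age, 13 or 21 months, were exchanged, the regions called 1-sided at both ages here would be those that changed side. This was not tested.

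The members were mostly modest peaks. The authors' fold, the height of a peak over its local background, had a median of 2.66 at 21 months and 3.72 at 13 months in the ipsilateral set, and of 2.88 at 21 months and 3.16 at 13 months in the contralateral set. The medians over all peaks of the same lists were 2.96 and 4.24 on the ipsilateral side, and 2.96 and 3.33 on the contralateral side. Only 105 ipsilateral and 181 contralateral members reached a fold of 4 at both ages. At the limit of the rule, the weakest ipsilateral member on an assembled chromosome, chr15:88622289-88622933, had a fold of 1.51 at 21 months and of 3.15 at 13 months. Just outside it, chr15:39682920-39683570 had 2.79 and 4.18 on the ipsilateral side and was left out for a contralateral peak of fold 1.49 at 21 months. In the contralateral set the weakest member, chr10:65071909-65072179, had 1.62 and 2.80, and chr10:82878986-82879536 was left out for an ipsilateral peak of fold 1.55 at 21 months. A single peak on the other side kept 5604 regions out of the ipsilateral set and 10482 out of the contralateral set, with median folds of 3.04 and 3.24 for that peak.

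Absence on the other side holds for the region itself and not for its surroundings. From an ipsilateral member the nearest contralateral peak lay a median 2.32 kb away at 21 months and 1.79 kb at 13 months, and 32.5% and 36.4% of members had one within 1 kb. From a contralateral member the nearest ipsilateral peak lay a median 2.11 kb away at 21 months and 3.10 kb at 13 months, and 33.7% and 26.3% had one within 1 kb. Many regions changed side between the ages: 9083 had a peak on the ipsilateral side at 21 and on the contralateral side at 13 months, and 4640 the reverse. These switching regions share 1 list of the choice with each set and serve as the closest comparison below.

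The summits of the 2 peaks that make up a member lay a median 122 bp apart in the ipsilateral set and 119 bp apart in the contralateral set. The same distance was 105 bp in regions ipsilateral at 21 and contralateral at 13 months, 134 bp in the opposite switching regions, and 96 bp in the 6899 regions listed on both sides at 21 months and in neither list at 13 months. The distances of the members lay within the range of those of peaks paired across sides.

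The 10 ipsilateral members named by their lower fold of the 2 ages had lower folds of 4.83 to 5.75. The first, chr1:251575461-251576812, 1352 bp long, had a fold of 5.75 at 21 months and 7.05 at 13 months, 2.63 with plasma of 3-month rats, no peak with plasma of 22-month rats, and neither methyl mark. It lay 149 kb from the nearest region with H3K4me3 in all 4 lists. The second, chr1:247999572-247999948, had 5.63 and 5.99 and no H3K9ac peak with plasma, and carried H3K27me3 on both sides at both ages with folds of 3.15 to 4.20, and at 2.98 with plasma of 22-month rats. Of the 10, 4 had a peak with plasma of 22-month rats and 1 with plasma of 3-month rats. The whole ipsilateral set had 55.4% and 4.97%, and all regions 41.1% and 18.6%. H3K4me3 and H3K27me3 each lay in 4 of the 10 in at least 1 untreated list. The whole set had 12.6% and 35.1%, and all regions 15.2% and 21.8%. A region on an unplaced scaffold had a higher lower fold, 11.8, and is not named.

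The 10 contralateral members so named had lower folds of 4.995 to 6.02. The first, chr8:91644599-91645428, had a fold of 6.56 at 21 months and of 6.02 at 13 months, 1.99 with plasma of 3-month rats and 3.98 with plasma of 22-month rats. The second, chr8:118087727-118089265, had 6.41 and 5.97, and 4.12 with plasma of 3-month rats alone. Here 8 of the 10 had a peak with plasma of 3-month rats and 7 with plasma of 22-month rats. The whole contralateral set had 21.9% and 42.2%, against 18.6% and 41.1% of all regions, so these 10 do not stand for the set. The tenth, chrX:77061869-77062259, carried H3K4me3 in all 4 lists, with folds of 10.7 and 6.03 on the ipsilateral side and 34.7 and 6.27 on the contralateral side at 21 and 13 months.

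Members were longer than regions in general and shorter than those in all 4 lists. The median length was 486 bp in the ipsilateral set (quartiles 383 and 637 bp) and 510 bp in the contralateral set (quartiles 389 and 698 bp), against 364 bp over all regions and 1550 bp in the 28146 regions listed in all 4 lists. The switching regions had medians of 498 and 520 bp, close to those of the members. Lengths over 1500 bp occurred in 22 ipsilateral and 83 contralateral members. The longest ipsilateral member, chr1:81230732-81233438, was 2707 bp long with a fold of 2.77 at 21 months and of 6.30 at 13 months, and reached 6.20 with plasma of 22-month rats. The longest contralateral member, chr11:32235184-32239331, was 4148 bp long, with folds of 3.87 and 4.10, and was listed at 3.28 and 3.19 with plasma of 3-month and 22-month rats. All 5 of the longest ipsilateral members had a peak with plasma of 22-month rats and none with plasma of 3-month rats, whereas the 5 longest contralateral members all had one with plasma of 3-month rats and 4 of them with plasma of 22-month rats. Over all regions the shares were 18.6% with plasma of 3-month rats and 41.1% with plasma of 22-month rats, and shares by length are given below.

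Members lay near regions of constant H3K4me3 slightly less often than all regions did, a background that includes the regions in all 4 H3K9ac lists. Regions with H3K4me3 in all 4 untreated H3K4me3 lists (18912 regions, median length 1626 bp) stand in for promoters, since no gene annotation of the coordinates' build was used. Within 5 kb of such a region lay 26.4% of the ipsilateral set (interval 24.9% to 28.0%), 25.6% of the contralateral set (24.6% to 26.6%), and 29.6% of all regions. The sets differed by 0.851 percentage points, with an interval from -0.996 to 2.73 that includes 0. The interval excluded 0 under 5 alternatives, among them H3K9ac peaks of a fold of at least 4, where the difference was 8.96 (4.11 to 13.7). Regions in all 4 H3K9ac lists had 70.7%, and made up 19910 of the 59155 regions within 5 kb. The share was 27.8% in regions ipsilateral at 21 and contralateral at 13 months and 30.0% in the opposite switching regions. The median distance was 14.5 kb in the ipsilateral set and 15.9 kb in the contralateral set, against 14.0 kb over all regions.

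The sets were spread over all autosomes and X but not evenly. Chromosome 12 held 4.88% of the ipsilateral set and 2.52% of the contralateral set, against 3.19% of all regions, a ratio to all regions of 1.53 and 0.791. Chromosome 10 held 9.66% and 6.91%, against 8.23%, and chromosome 1 held 12.9% and 10.6%, against 11.4%. Shares ran the other way on chromosome 2, with 4.85% of the ipsilateral set and 7.80% of the contralateral set against 6.77%, on chromosome 18, with 1.83% and 3.41% against 2.91%, and on chromosome X, with 0.491% and 1.22% against 1.07%. On chromosomes 12 and 2 the switching regions showed the same order by their side at 21 months: chromosome 12 held 5.66% of regions ipsilateral at 21 and contralateral at 13 months and 1.62% of the opposite ones, and chromosome 2 held 3.71% and 9.63%. On chromosome X both groups of switching regions lay below all regions, with 0.672% of those ipsilateral at 21 months and 0.797% of the opposite ones.

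**Figure D1:**
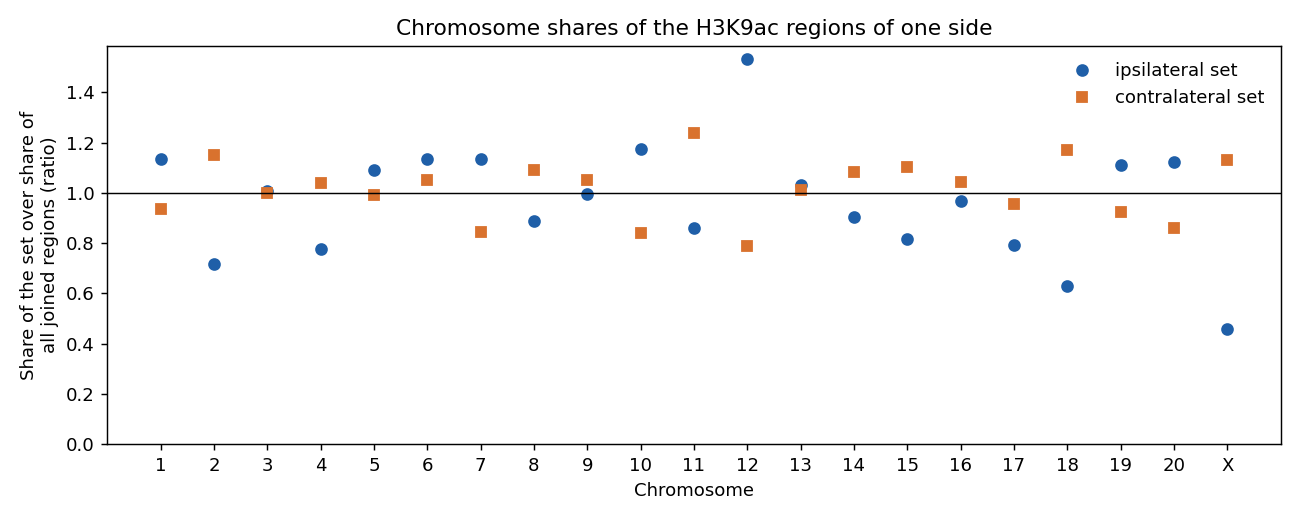
Share of the ipsilateral set (circles) and of the contralateral set (squares) on each chromosome, divided by the share of all 199844 joined H3K9ac regions there. The line at 1 is the share of all regions. The ipsilateral set is highest on chromosome 12, at 1.53, and lowest on X, and the contralateral set lies below 1 on chromosomes 10 and 12.

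Members were also joined to stretches. Joined within 50 kb, the ipsilateral set formed 2272 stretches, 515 of them with 2 or more members, and 42.5% of its members lay in those. The larger contralateral set formed 4406 stretches, 1489 with 2 or more members, which held 58.7% of its members. The sets differ in size, so these shares were not compared, and the same share for other regions was not computed. Stretches of 5 or more members numbered 26 in the ipsilateral set and 129 in the contralateral set.

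The ipsilateral stretches with most members were chr6:7327342-7395402, with 7 members of folds 1.94 to 5.63, chr19:59733057-59859213, with 7 members of folds 2.02 to 4.84, and chr8:62320469-62382244, with 6 members of folds 1.84 to 4.70. With plasma of 22-month rats, 6 members of the chromosome 6 stretch, 1 of the chromosome 19 stretch and 5 of the chromosome 8 stretch had a peak. With plasma of 3-month rats, 1 member of the chromosome 6 stretch and none of the other two did. The contralateral stretches with most members were chr10:46027650-46155982 and chr18:4167580-4330879, with 12 members each, and chr4:66475191-66622198, with 11. Peaks with plasma of 3-month rats lay in 3, 4 and 3 of their members, and with plasma of 22-month rats in 2, 5 and 4. H3K27me3 was listed in 3 members of the chromosome 6 stretch and 2 of the chromosome 8 stretch, and in no member of the 3 contralateral stretches. Over all regions the shares were 18.6% with plasma of 3-month rats, 41.1% with plasma of 22-month rats, and 21.8% for H3K27me3 in at least 1 untreated list. The plasma shares were 4.97% and 55.4% in the whole ipsilateral set, and 21.9% and 42.2% in the whole contralateral set. These few members do not stand for the sets.

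The plasma lists, all from ipsilateral tissue at 21 months, divided the sets in opposite directions. A peak with plasma of 3-month rats lay in 152 ipsilateral members, 4.97% (interval 4.26% to 5.80%), and in 1548 contralateral members, 21.9% (21.0% to 22.9%), against 18.6% of all regions. A peak with plasma of 22-month rats lay in 1693 ipsilateral members, 55.4% (53.6% to 57.1%), and in 2986 contralateral members, 42.2% (41.1% to 43.4%), against 41.1% of all regions. The difference, ipsilateral minus contralateral set, was -16.9 percentage points (-18.1 to -15.7) with plasma of 3-month rats and 13.1 percentage points (11.0 to 15.2) with plasma of 22-month rats. Contralateral members had no peak in untreated ipsilateral tissue of either age by the rule, yet some were listed there with either plasma.

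In the ipsilateral set, 1591 members (52.0%) had a peak with plasma of 22-month rats alone, 50 (1.64%) with plasma of 3-month rats alone, 102 (3.34%) with both and 1314 (43.0%) with neither. In the contralateral set, 2214 members (31.3%) had one with plasma of 22-month rats alone, 776 (11.0%) with plasma of 3-month rats alone, 772 (10.9%) with both and 3306 (46.8%) with neither. Over all regions these shares were 27.4%, 4.83%, 13.8% and 54.0%. With equal numbers of peaks taken from the plasma lists, the difference with plasma of 22-month rats was 9.42 percentage points.

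The plasma shares followed the side at 21 months. Regions ipsilateral at 21 and contralateral at 13 months had 4.05% with plasma of 3-month rats and 59.0% with plasma of 22-month rats, below and above all regions as in the ipsilateral set. Regions contralateral at 21 and ipsilateral at 13 months had 27.5% and 37.1%, above and below all regions. Regions in all 4 lists had 71.1% and 95.6%. They made up 20014 of the 37130 regions with a peak with plasma of 3-month rats, and 26921 of the 82196 with plasma of 22-month rats. The shares of all regions are raised by them, so above or below all regions does not mean above or below the remaining regions. For regions on 1 side at 21 months whatever was listed at 13 months, the differences were -12.6 and 17.1 percentage points. For regions on 1 side at 13 months whatever was listed at 21 months, they turned to 2.57 and -9.28 percentage points.

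**Figure D2:**
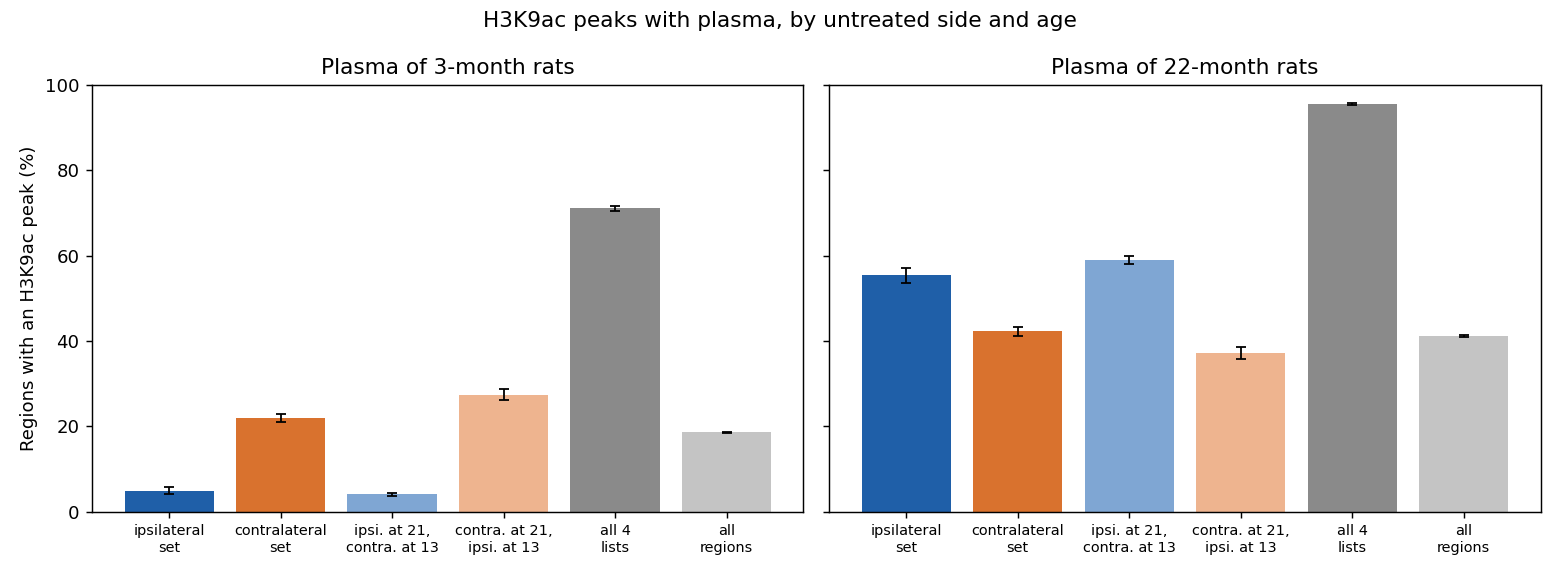
Percent of regions with an H3K9ac peak in plasma-treated ipsilateral tissue, with the plasma from rats of 3 months (left) or of 22 months (right), by set; bars are shares with 95% Wilson intervals. The ipsilateral set (4.97% and 55.4%) sits beside the regions ipsilateral at 21 and contralateral at 13 months (4.05% and 59.0%), and the contralateral set (21.9% and 42.2%) lies nearest all regions (18.6% and 41.1%); the opposite switching regions have 27.5% and 37.1%.

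Regions with a peak in 1 untreated list only had the same order at 21 months. Of the 31771 regions listed only in the 21-month ipsilateral list, 2.41% had a peak with plasma of 3-month rats, and of the 50810 listed only in the 21-month contralateral list, 13.1%. At 13 months the order was turned: 4.54% of the 15133 regions listed only on the ipsilateral side and 2.70% of the 25534 listed only on the contralateral side. The list with the highest share was thus the 21-month contralateral one and the next the 13-month ipsilateral one. With plasma of 22-month rats the shares at 21 months were 29.8% for the ipsilateral and 17.3% for the contralateral list, and at 13 months 20.4% for the ipsilateral and 25.1% for the contralateral list. Each of these shares lay below that of all regions, 18.6% with plasma of 3-month rats and 41.1% with plasma of 22-month rats.

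The share with plasma of 3-month rats was about level over the lengths of ipsilateral members. It was 4.55% in members up to 300 bp and 4.55% in those over 1500 bp, where 1 of 22 had a peak (0.807% to 21.8%). In the contralateral set it was 11.0% in members up to 300 bp and 67.5% in those over 1500 bp (56.8% to 76.6%). The switching regions did likewise by their side at 21 months: the ipsilateral ones had 4.59% and 4.82% in these classes, and the contralateral ones 15.5% and 82.6%. Regions in all 4 lists had 31.6% (6 of 19) and 86.2%. With plasma of 22-month rats the share grew with length in both sets, to 90.9% of the longest ipsilateral members and 60.2% of the longest contralateral members, against 41.8% and 31.9% of the shortest. Members were also put in 4 classes of nearly equal size by the lower of their 2 folds. The share with plasma of 3-month rats was 3.53% in the class of lowest folds and 8.38% in the class of highest folds of the ipsilateral set, and 13.1% and 34.9% in those of the contralateral set. The share with plasma of 22-month rats was nearly level across the ipsilateral classes, 57.0% in the lowest and 54.6% in the highest, and was 48.0% and 39.3% in the contralateral ones.

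**Figure D3:**
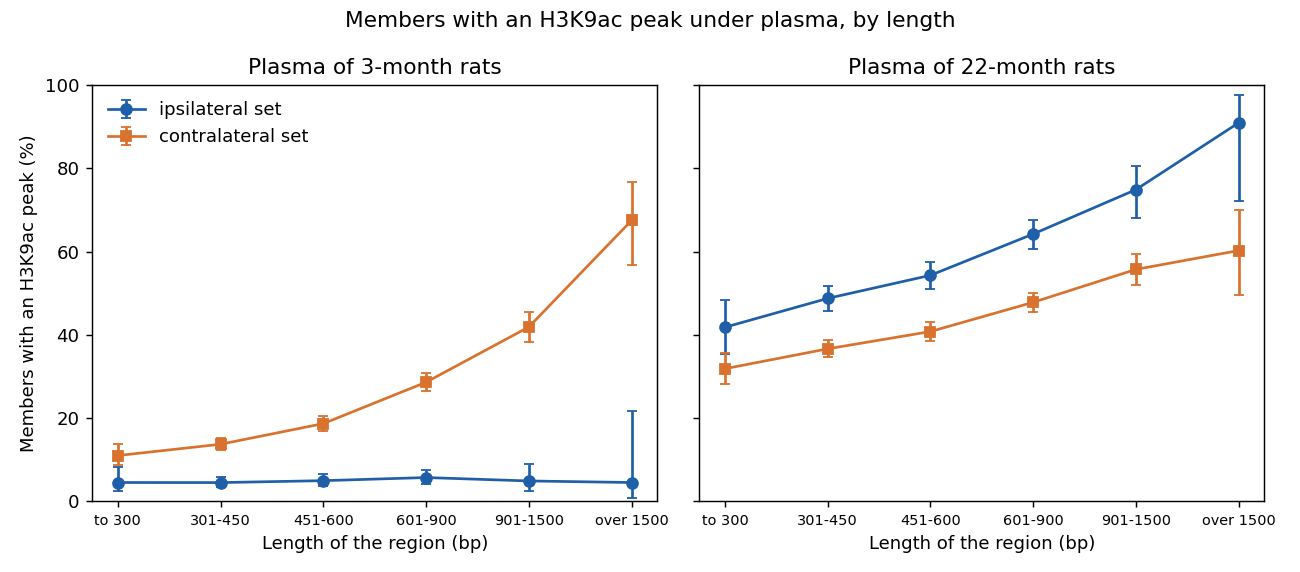
Percent of members with an H3K9ac peak under each plasma, by the length of the region in bp, with 95% Wilson intervals; circles are the ipsilateral set and squares the contralateral set. With plasma of 3-month rats the ipsilateral set stays near 5% at every length while the contralateral set reaches 67.5%, and with plasma of 22-month rats both climb and the ipsilateral set lies higher at each length.

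Ipsilateral members with both plasma peaks had lower plasma folds of 4.22 to 5.12 at the top. The first, chr19:19679489-19680106, had 5.42 with plasma of 3-month rats and 5.12 with plasma of 22-month rats, and folds of 2.09 and 4.41 without plasma at 21 and 13 months. The third, chr10:77755084-77755329, lay in a region with H3K4me3 in all 4 lists, at folds of 9.02 to 11.5, and had 4.57 and 4.65 with plasma. The top 5 contralateral members had higher lower plasma folds, 6.79 to 8.10, and all lay within 0.182 kb of such an H3K4me3 region. The first among them, chr4:10820902-10821851, had 8.10 with plasma of 3-month rats and 17.5 with plasma of 22-month rats, and folds of 4.05 and 3.41 without plasma; H3K4me3 was listed there on the contralateral side at 21 months alone, at a fold of 24.8. The members most strongly listed under both plasmas thus lay at or beside H3K4me3 regions in the contralateral set, and in the ipsilateral set at distances of 0 to 83.6 kb.

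Members carried H3K4me3 less often than all regions in each list, a background that includes the regions in all 4 H3K9ac lists. In the ipsilateral set 7.59% of members had an H3K4me3 peak on the ipsilateral side at 21 months, 8.05% at 13 months, and on the contralateral side 8.11% at 21 months and 2.98% at 13 months. In the contralateral set the shares were 4.73%, 3.57%, 7.54% and 3.37% in the same lists. All regions had 12.2%, 11.6%, 14.3% and 10.8%. Of regions in all 4 H3K9ac lists, 62.4% to 69.6% had it. They made up 18357 of the 24313 regions with H3K4me3 on the ipsilateral side at 21 months. In that list, regions with a peak in 1 untreated H3K9ac list only had 1.19% to 2.38%, below both sets. Regions ipsilateral at 21 and contralateral at 13 months had 5.65%, 5.16%, 9.41% and 4.76% in the 4 H3K4me3 lists. The opposite switching regions had 6.40%, 5.34%, 8.69% and 3.77%, so low shares were not particular to the members. With the sets rebuilt from H3K9ac peaks of a fold of at least 4 alone, the shares were higher. In the same 4 lists they were 38.6%, 37.8%, 44.7% and 31.1% of the ipsilateral set, and 28.7%, 23.4%, 36.2% and 23.9% of the contralateral set. Regions with a weaker H3K9ac peak on the other side can enter these rebuilt sets. In the class of ipsilateral members with the highest folds, the shares were 9.69%, 10.6%, 9.29% and 3.80%. In that class of contralateral members they were 7.58%, 5.94%, 10.6% and 5.21%.

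Where a member had H3K4me3 on 1 side alone, the side at 13 months was mostly the ipsilateral one in the ipsilateral set. At 13 months, H3K4me3 was listed on the ipsilateral side alone in 165 ipsilateral members (5.40%) and 76 contralateral members (1.08%), against 1.51% of all regions. It was on the contralateral side alone in 10 ipsilateral members (0.327%) and 62 contralateral members (0.877%), against 0.688%. At 21 months it was on the ipsilateral side alone in 83 ipsilateral members (2.72%) and 36 contralateral members (0.509%), against 0.508%. It was on the contralateral side alone in 99 ipsilateral members (3.24%) and 235 contralateral members (3.32%), against 2.62%. So ipsilateral-only H3K4me3 was commoner in the ipsilateral set at each age, and contralateral-only H3K4me3 at 21 months was about as common in both sets. The switching regions did not follow the H3K9ac side at 21 months. Ipsilateral-only H3K4me3 at 21 months lay in 0.165% of regions ipsilateral at 21 and contralateral at 13 months, and in 1.25% of the opposite ones.

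H3K4me3 alone on the ipsilateral side at both ages lay in 50 ipsilateral members (1.64%, interval 1.24% to 2.15%) and 4 contralateral members (0.0566%, 0.0220% to 0.145%), against 0.196% of all regions. On the contralateral side alone at both ages it lay in 4 ipsilateral members (0.131%) and 17 contralateral members (0.241%, 0.150% to 0.385%), against 0.208%. In the contralateral set that share was near the background of all regions. The sets differed by 1.58 percentage points (1.18 to 2.09) in ipsilateral-only and by -0.110 percentage points (-0.275 to 0.114) in contralateral-only H3K4me3. In regions ipsilateral at 21 and contralateral at 13 months the 2 shares were 0.0550% and 0.440%, and in the opposite switching regions 0.453% and 0.388%. For regions on 1 side at 21 months whatever was listed at 13 months, the difference in ipsilateral-only H3K4me3 was 0.164 percentage points. H3K4me3 and H3K9ac lists of an age and side come from separate libraries, but the labels do not say whether they come from separate animals or cuts of tissue.

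**Figure D4:**
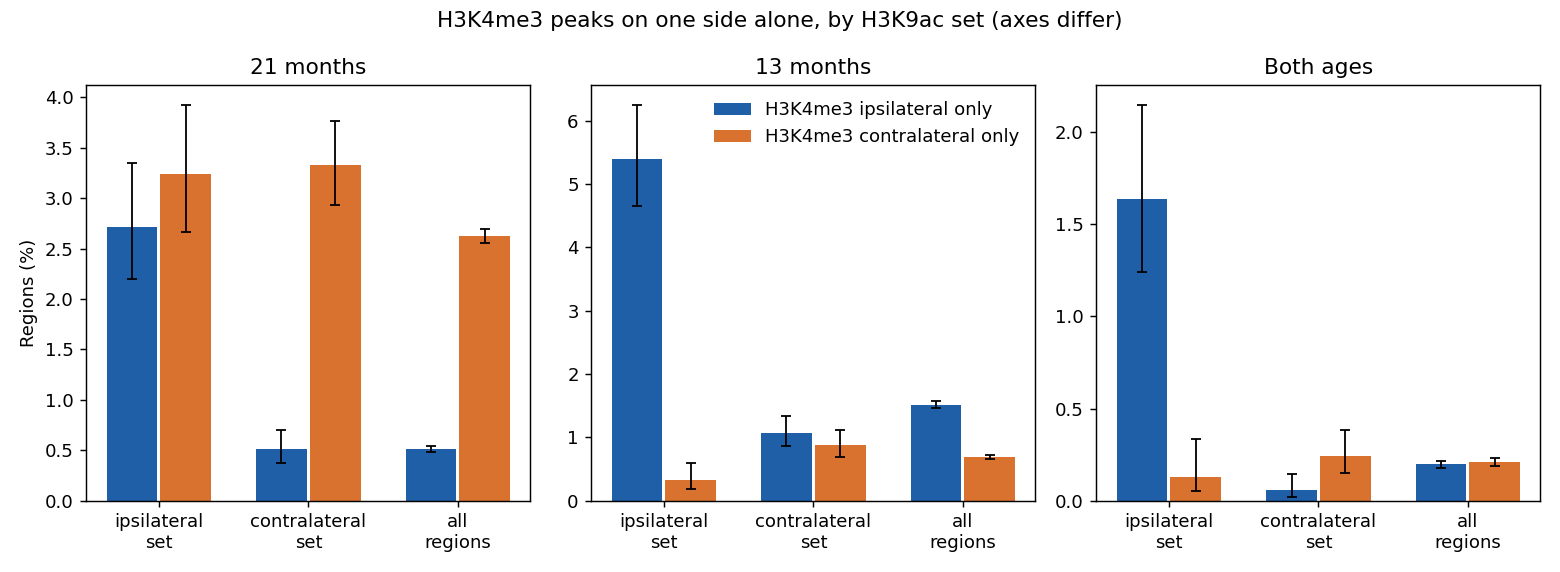
Percent of regions with an H3K4me3 peak on the ipsilateral side alone (blue) or the contralateral side alone (orange) at 21 months, at 13 months and at both ages, with 95% Wilson intervals; the vertical axes differ. The ipsilateral set stands out in ipsilateral-only H3K4me3 in each panel, at 2.72%, 5.40% and 1.64%, against 0.508%, 1.51% and 0.196% of all regions.

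The 50 ipsilateral members with H3K4me3 on the same side alone at both ages had a median length of 667.5 bp and lay on 19 chromosomes. Chromosome 1 held 10 of the 50, beside 12.9% of the whole ipsilateral set and 11.4% of all regions. An H3K9ac peak was listed with plasma of 3-month rats in 6 of the 50 and with plasma of 22-month rats in 39. In the whole ipsilateral set the shares were 4.97% and 55.4%, against 18.6% and 41.1% of all regions. The set had a shorter median length, 486 bp, and its share with plasma of 22-month rats grew with length. The part of length in the count of 39 was not tested. The 50 members were ranked by the lowest of their ipsilateral H3K9ac and H3K4me3 folds. The first of the 50, chr4:155689628-155691011, had an H3K9ac fold of 4.95 at 21 months and of 6.02 at 13 months and H3K4me3 folds of 4.66 and 5.88. Another, chr19:37818599-37819478, had H3K9ac folds of 4.59 and 3.72, H3K4me3 folds of 4.02 and 9.73, and 6.18 with plasma of 22-month rats. A further one, chr15:41643308-41643804, had H3K9ac folds of 3.78 and 4.86 and H3K4me3 folds of 3.55 and 5.50. These regions were chosen after their values were seen, and both marks were listed on the haemorrhage side at both ages in each.

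The 17 contralateral counterparts had a median length of 605 bp and lay on 11 chromosomes. An H3K9ac peak was listed with plasma of 3-month rats in 4 of them and with plasma of 22-month rats in 12. In the whole contralateral set the shares were 21.9% and 42.2%, against 18.6% and 41.1% of all regions. That set too had a shorter median length, 510 bp, and the part of length was not tested. The first, chr11:16321340-16321944, had an H3K9ac fold of 3.60 at 21 months and of 5.16 at 13 months and H3K4me3 folds of 5.37 and 3.82, all on the contralateral side, and no H3K9ac peak with plasma. The third, chr3:50516038-50517024, had H3K9ac folds of 3.12 and 3.82, H3K4me3 folds of 5.65 and 3.04, and H3K9ac at 4.57 with plasma of 3-month rats and 3.07 with plasma of 22-month rats.

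H3K27me3 lay in 1074 ipsilateral members (35.1%) and 795 contralateral members (11.2%) in at least 1 of the 4 untreated lists, against 21.8% of all regions. The sets thus stood on either side of the background. The 21-month contralateral list gave most: 986 ipsilateral members (32.3%, interval 30.6% to 33.9%) and 551 contralateral members (7.80%, 7.19% to 8.44%), against 19.0%. The difference was 24.5 percentage points (22.7 to 26.2). On the ipsilateral side at 21 months the shares were 20.5% and 6.38%, against 13.2%. At 13 months they were 7.49% and 2.99% on the ipsilateral side, against 6.35%, and 6.87% and 1.12% on the contralateral side, against 5.15%.

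H3K27me3 also followed the side of H3K9ac at 21 months. Regions ipsilateral at 21 and contralateral at 13 months had 36.6% in the 21-month contralateral H3K27me3 list, and regions contralateral at 21 and ipsilateral at 13 months had 4.94%. For regions on 1 side at 21 months whatever was listed at 13 months the difference was 27.9 percentage points, and for regions on 1 side at 13 months it turned to -7.85 percentage points. The class of the ipsilateral set with the lowest H3K9ac folds had 35.7% and the class with the highest 25.8%, and in the contralateral set these were 13.0% and 3.79%, so H3K27me3 was rarer at stronger members of both sets. Among ipsilateral members over 1500 bp, 17 of 22 had H3K27me3 in that list, and among contralateral members 1 of 83. Of switching regions of that length, 41 of 83 (49.4%) had it where the side at 21 months was ipsilateral and 1 of 46 (2.17%) where it was contralateral, against 29.0% of regions in all 4 lists.

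**Figure D5:**
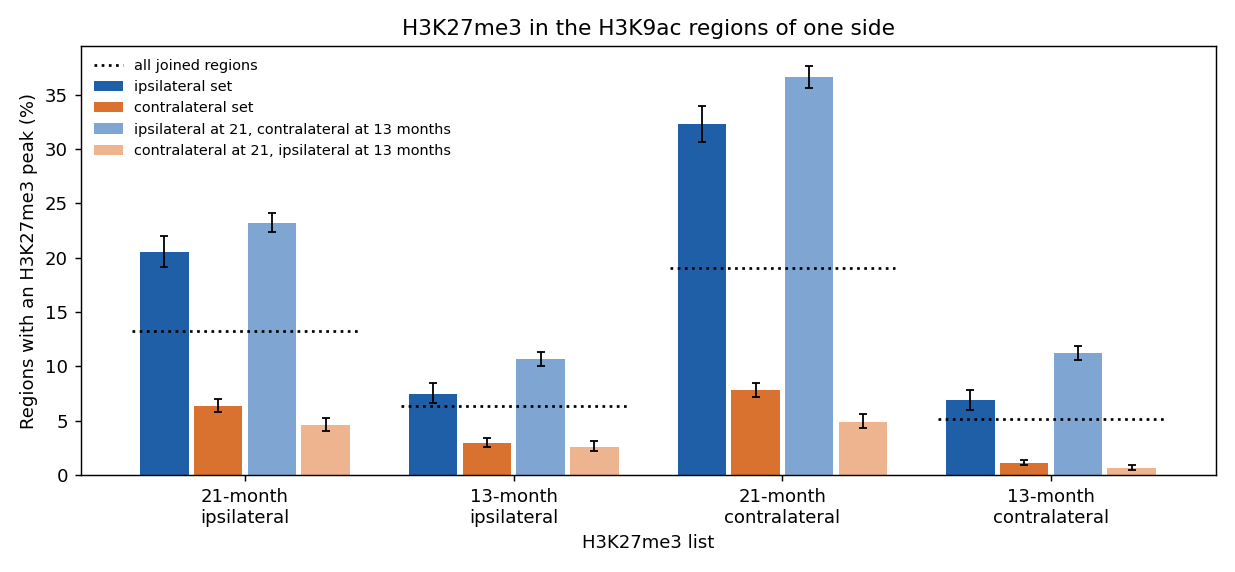
Percent of regions with an H3K27me3 peak in each of the 4 untreated H3K27me3 lists, for the ipsilateral set, the contralateral set and the 2 groups that changed side, with 95% Wilson intervals; dotted lines give all joined regions. In the 21-month contralateral list the ipsilateral set has 32.3% and the contralateral set 7.80%, on either side of 19.0%.

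H3K27me3 was also read by side. At 21 months it was listed on the ipsilateral side alone in 83 ipsilateral members (2.72%) and 195 contralateral members (2.76%), against 2.34% of all regions, and on the contralateral side alone in 441 (14.4%) and 295 (4.17%), against 8.11%. At 13 months it was on the ipsilateral side alone in 89 (2.91%) and 160 (2.26%), against 2.50%, and on the contralateral side alone in 70 (2.29%) and 28 (0.396%), against 1.30%. At both ages it was on the ipsilateral side alone in 5 ipsilateral members (0.164%) and 39 contralateral members (0.552%), against 0.346%. It was on the contralateral side alone in 15 (0.491%) and 4 (0.0566%), against 0.238%. These counts are small. In regions ipsilateral at 21 and contralateral at 13 months, H3K27me3 at both ages was ipsilateral alone in 13 (0.143%). It was contralateral alone in 41 (0.451%) of them. In the opposite switching regions the counts were 23 (0.496%) and 1 (0.0216%). Here too the shares had the order of the side at 21 months, on few regions. With plasma, H3K27me3 peaks lay in 2.45% of ipsilateral and 0.750% of contralateral members for plasma of 3-month rats, against 2.64% of all regions, and in 2.22% and 0.976% for plasma of 22-month rats, against 2.09%.

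Most members carried neither methyl mark in any untreated list: 60.5% of the ipsilateral set and 82.8% of the contralateral set, against 69.4% of all regions. H3K27me3 without H3K4me3 was listed in 26.9% of ipsilateral and 8.70% of contralateral members, against 15.3%. Both marks together were listed in 8.21% and 2.55%, against 6.47%. H3K4me3 without H3K27me3 was listed in 4.35% and 5.98%, against 8.78%. H3K4me3 in at least 1 list was found in 384 ipsilateral members (12.6%) and 603 contralateral members (8.53%), against 15.2% of all regions. The lists of H3K27me3 differ in peak number, with 300668 and 367061 peaks at 21 months on the ipsilateral and contralateral side and 117866 and 51805 at 13 months, and the part of peak number, depth and duplicates in these shares was not tested.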

How the data were processed

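Cutadapt, Bowtie2 and HOMER are named in the submitters' processing notes, with neither version nor role. MACS 2.1.1.20160309 called narrow peaks at a q-value cutoff of 0.05, with at most 1 tag kept per position and the tags of a group pooled, per the file headers. Lists without plasma (12) rest on 2 ChIP and 2 input libraries each, and plasma lists (4) on 1 and 1, per the file headers. The deposited lists hold for each peak a pileup signal (coverage), scaled within its list and not used here, a −log10 q-value, and the fold enrichment, which is the ratio of the peak to its local background. The fold and the −log10 q-value are the authors' own and served only to describe, rank or select peaks. Folds are given side by side between lists uncorrected for the depth and background of their lists. Duplicate removal lowers depth, and narrow calling can break the broad domains of H3K27me3 into short peaks. The genome build was not given in the sources used here, and coordinates are 1-based as in the lists. No genes or sequences were assigned to them. File paths in the headers place both sides of each mark and age in 1 folder, 7 folders in all, with all plasma lists in 1.

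Peaks were joined where they overlapped by at least 1 bp, and a region had a peak of another list on an overlap of at least 1 bp. The joining, overlaps and distances of regions were checked on simulated regions. Shares have 95% Wilson intervals and differences of shares Newcombe intervals, which were not checked in that way. No test was run, since peaks were called on pooled libraries. Named regions lie on assembled chromosomes: in each set the 10 with the highest lower fold, the 5 longest, the 5 with the highest lower plasma fold and the 3 stretches with most members. The text gives the leading ones. Regions with H3K4me3 on the same side alone were a later addition, chosen on their values. The members, groups and rules were chosen with earlier results of these data known. The planned naming of the nearest genes and the counts near cell type markers were left out for want of an annotation of the build. Python 3.11.15, numpy 2.4.6, pandas 2.3.3, scipy 1.17.1 and matplotlib 3.10.9 were used.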

Additional observations from a re-analysis of the deposited data

Results flagged for a closer look

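In 2 places the difference between the ipsilateral and contralateral sets had opposite signs in 2 groups under the same contrast. The difference, ipsilateral minus contralateral set, in the share with an H3K9ac peak was -16.9 percentage points with plasma of 3-month rats and 13.1 percentage points with plasma of 22-month rats. In the share with an H3K4me3 peak on the contralateral side it was 0.571 percentage points at 21 months and -0.391 percentage points at 13 months. The H3K4me3 shares, 8.11% (95% Wilson interval 7.20% to 9.13%) and 7.54% (6.95% to 8.18%) at 21 months, and 2.98% (2.43% to 3.64%) and 3.37% (2.97% to 3.81%) at 13 months, have intervals that overlap at each age, so neither of these 2 differences goes beyond counting error. With 1 pooled list a group, neither difference between plasmas nor that between ages was tested.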

How the results depend on the processing

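Beside the settings of the report, 12 alternatives and 3 more chosen after seeing the data were run. The plasma differences and that of H3K27me3 in the 21-month contralateral list kept their direction in all that apply to them but 1 of the 3. With 1 side asked at 13 months alone, the differences (ipsilateral minus contralateral set, percentage points) were 2.57 with plasma of 3-month rats, -9.28 with plasma of 22-month rats and -7.85 for H3K27me3; the cause was not tested. With 1 side at 21 months alone they were -12.6, 17.1 and 27.9, and asking a fold of 4 or more at both ages and no other-side peak gave -37.0, 5.97 and 19.3, where the interval of the second (-5.96 to 17.7) includes 0. With H3K9ac peaks of a −log10 q-value of at least 5 they were -22.0, 10.8 and 26.5, and with the other lists' peaks of a fold of at least 4 they were -4.42, 4.55 and 8.08. With H3K9ac peaks of a fold of at least 4 the plasma differences were -12.9 and 16.3. For plasma of 3-month rats and for H3K27me3, joining within 500 bp gave -18.2 and 28.2, no other-side peak within 1 kb gave -18.6 and 31.9, 50% of the region covered gave -8.21 and 19.5, and the region's centre inside a peak gave -9.95 and 20.2. Equal numbers of plasma peaks gave 9.42 for plasma of 22-month rats, and equal numbers of H3K9ac peaks gave 22.1 for H3K27me3.

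H3K4me3 alone on the ipsilateral side at both ages (1.58 percentage points) moved to 3.08 at the −log10 q-value of 5, 0.906 at 50% covered, 0.588 at the other lists' fold of 4, 0.164 and 0.664 with 1 side at 21 or at 13 months alone, and 3.81 with a fold of 4 at both ages. Its contralateral counterpart (-0.110) moved to -0.477 (-0.924 to -0.00281) at the −log10 q-value of 5, -0.457 (-1.87 to 0.515) at a fold of 4 and -0.400 (-0.722 to -0.112) with equal numbers of peaks, and was 0.0307 with 1 side at 21 months alone and -0.115 (-0.180 to -0.0437) at 13 months alone. At the q-value, with equal numbers and at 13 months alone the interval thus excludes 0, where that of the report includes it. The share within 5 kb of constant H3K4me3 regions differed by 8.96 at a fold of 4, 3.13 (1.26 to 5.04) with joining within 500 bp and 3.56 with a fold of 4 at both ages, against 0.851 in the report. With 20 kb in place of 5 kb it differed by 2.38 (0.281 to 4.47), and with 1 side at 21 or at 13 months alone by 1.11 and 1.32; these and the first 2 have intervals that exclude 0. H3K4me3 on the ipsilateral side at 21 months reached 19.4% and 13.9% of the sets at the −log10 q-value of 5.

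The ipsilateral and contralateral sets held 1595 and 2472 regions at the −log10 q-value of 5, 1352 and 564 at a fold of 4, where their order turned, 1569 and 3958 with no other-side peak within 1 kb, 47013 and 65155 with 1 side at 21 months alone, 25338 and 49534 at 13 months alone, and 105 and 181 with a fold of 4 at both ages. Equal numbers of peaks gave 3230 and 3426. Median lengths were 635 and 691 bp at the −log10 q-value of 5, 826 and 822.5 bp at a fold of 4, 543 and 596.5 bp with equal numbers of peaks, 634 and 703 bp with joining within 500 bp, 325 and 322 bp and 346 and 377 bp with 1 side at 21 or at 13 months alone, and 503 and 687 bp with a fold of 4 at both ages. Of 292 other shares of either set, 70 stayed within their 95% interval and 222 did not. No paired analysis was possible because each list pools the libraries of a group, and for the same reason no replicate was left out in turn.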
